A study of Mus musculus with 16 samples.

Results

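The 43 genes described here encode ligands and receptors of axon guidance in the mouse: 21 ephrins and Eph receptors, 6 Slits and Robo receptors, 6 genes of the netrin, Dcc and Unc5 group and 10 neuropilins and plexins. They were chosen by gene symbol. All 43 were found among the 24159 genes of the expression table, in 61 RefSeq transcript rows. The level of a gene is the FPKM (fragments per kilobase of transcript, scaled to the size of the library) summed over its rows, so that levels of different genes are compared per length.

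The RNA came from embryoid bodies (EBs), which are free-floating aggregates of differentiating embryonic stem (ES) cells, of the R1 mouse ES cell line. Day 0 EBs had grown for 4 days without LIF, the factor that keeps ES cells undifferentiated, and had not received retinoic acid (RA). Day 4 EBs were kept for 4 more days with 2 μM RA, a vitamin A derivative used to direct EBs towards neural fates. There were 2 biological replicates per day, and each of the 4 RNA samples was split into 4 vials that received in vitro transcribed mouse spike-ins (IVT mix 1, 2 or 3) or none (mix 4), together with ERCC spike-ins, which gave 16 libraries. EBs of the same age without RA are not part of this comparison, so that RA and the 4 days in culture cannot be told apart. The vials are splits of 1 RNA and not replicates of a day. Every RNA sample is therefore given as the mean of its 4 vials, and tests compare 2 RNA samples with 2.

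Growing axons are steered by cues that attract or repel the growth cone. Ephrins are bound to the cell surface and signal through the Eph receptor tyrosine kinases, Slits are secreted repellents of Robo receptors, netrin-1 attracts through Dcc and repels through Unc5 receptors, and semaphorins act through plexins, with neuropilins as co-receptors of the secreted class 3 semaphorins. The same families are used outside the nervous system, in the segmentation of mesoderm, in the sorting of cells at tissue borders and in blood vessel growth, so that their RNA does not mark neurons.

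On the scale of log2(FPKM + 0.1), the largest rise among the 43 genes was that of the EphA receptor Epha3, and the EphA receptors Epha1 and Epha2 were among the 5 genes with the largest falls, together with Unc5b, Plxna1 and Plxnd1, which lay within 1 standard error of Epha1. The sequences before the start sites of the 2 EphA genes that rose most and the 2 that were called lower are therefore shown, as 250 bases upstream of the RefSeq start (GRCm38.p6), 5′ to 3′ on the strand of the gene. The RefSeq genes Epha1 and Epha7 have an outer start inside the bases shown, upstream of the start used here. Capitals mark half-sites of retinoic acid receptor elements (the hexamer AGGTCA, the hexamer AGTTCA, the hexamer GGGTCA or the hexamer GGTTCA, on either strand).

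Epha3, chr16:63864176-63864425, minus strand: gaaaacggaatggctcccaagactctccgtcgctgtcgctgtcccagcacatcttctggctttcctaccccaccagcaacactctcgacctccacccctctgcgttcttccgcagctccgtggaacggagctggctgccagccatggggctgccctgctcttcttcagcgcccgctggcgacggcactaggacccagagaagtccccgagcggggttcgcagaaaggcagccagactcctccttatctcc

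Epha7, chr4:28812881-28813130, plus strand: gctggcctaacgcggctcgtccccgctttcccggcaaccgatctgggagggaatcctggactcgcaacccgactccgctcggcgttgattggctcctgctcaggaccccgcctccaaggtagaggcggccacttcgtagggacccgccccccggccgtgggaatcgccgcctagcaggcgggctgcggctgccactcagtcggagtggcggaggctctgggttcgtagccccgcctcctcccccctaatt

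Epha1, chr6:42373269-42373518, minus strand: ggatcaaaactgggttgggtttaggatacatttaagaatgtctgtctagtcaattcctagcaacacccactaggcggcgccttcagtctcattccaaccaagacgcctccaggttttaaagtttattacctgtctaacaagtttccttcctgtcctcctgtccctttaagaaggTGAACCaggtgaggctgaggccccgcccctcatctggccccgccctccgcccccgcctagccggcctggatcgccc

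Epha2, chr4:141300971-141301220, plus strand: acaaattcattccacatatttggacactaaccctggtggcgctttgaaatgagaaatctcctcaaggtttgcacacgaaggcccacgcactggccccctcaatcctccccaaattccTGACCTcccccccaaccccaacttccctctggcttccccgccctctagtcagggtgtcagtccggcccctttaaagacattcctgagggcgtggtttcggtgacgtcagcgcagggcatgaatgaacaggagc

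The pair that rose, Epha3 and Epha7, had no half-site in these letters, and the pair that fell, Epha1 and Epha2, had 1 each. A window of 300 bases (250 before to 50 after the start) was given for 36 of the 43 genes, in 42 windows. A half-site was found in 10 of these 42 windows and in 43.7% of all 32851 windows of that length. The 10 genes were Efna3, Efnb2, Epha1, Epha2, Ephb2, Ephb3, Nrp1, Plxnb2, Plxnd1 and Robo3. Of these, 1 was called higher at day 4, 4 were called lower and 5 were not called. The calls of all 43 genes were 10, 8 and 25, which include the genes without a window, where no half-site could be found. A link between half-sites and the calls was not tested. Pairs of half-sites in the same direction with a spacing of 1, 2 or 5 bases were found in 0 of the 42 windows and in 0.222%, 0.268% and 0.0974% of all windows. A match in a window is a description of its letters only.

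Day 4 was compared with day 0 by limma on log2(FPKM + 0.1) over 20491 genes, and a gene was called at an adjusted p of at most 0.05. Of the 43 guidance genes, 10 were called higher and 8 lower at day 4. These are 23.3% and 18.6% of the guidance genes, beside 16% and 14.5% of all genes. The median log2 difference was -0.14 over the 43 genes and -0.025 over all genes. Without adjustment, 13 guidance genes were higher and 12 lower at p of at most 0.05. Scaling the libraries to the same median moved the log2 difference of all genes by a median of 0.107 and gave 10 guidance genes called higher and 7 lower, beside 14% and 13.8% of all genes. These were in part other genes. Epha5, Unc5d and Nrp1 were then not called (adjusted p = 0.054, 0.0754 and 0.135), while Ephb2 was called higher and Epha8 lower. An exact permutation test of 2 RNA samples against 2 cannot give a p below 0.333 for a single gene, so calls rest on the spread that limma shares over genes. When either day 4 replicate was left out, limma called 0 of the 43 genes and 0 of all genes, while 11 of the 43 had an unadjusted p of at most 0.05 in either case. The lone day 4 sample is then assumed to vary like the day 0 samples. Without day 0 replicate 1, Epha1, Epha5, Nrp1, Plxna1 and Plxnd1 were not called (adjusted p from 0.052 to 0.104), and without day 0 replicate 2 Epha5 was not called (0.0803). With unmoderated variances, 0 of the 8 lower genes were called by limma (4 guidance genes unadjusted).

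**Figure D1:**
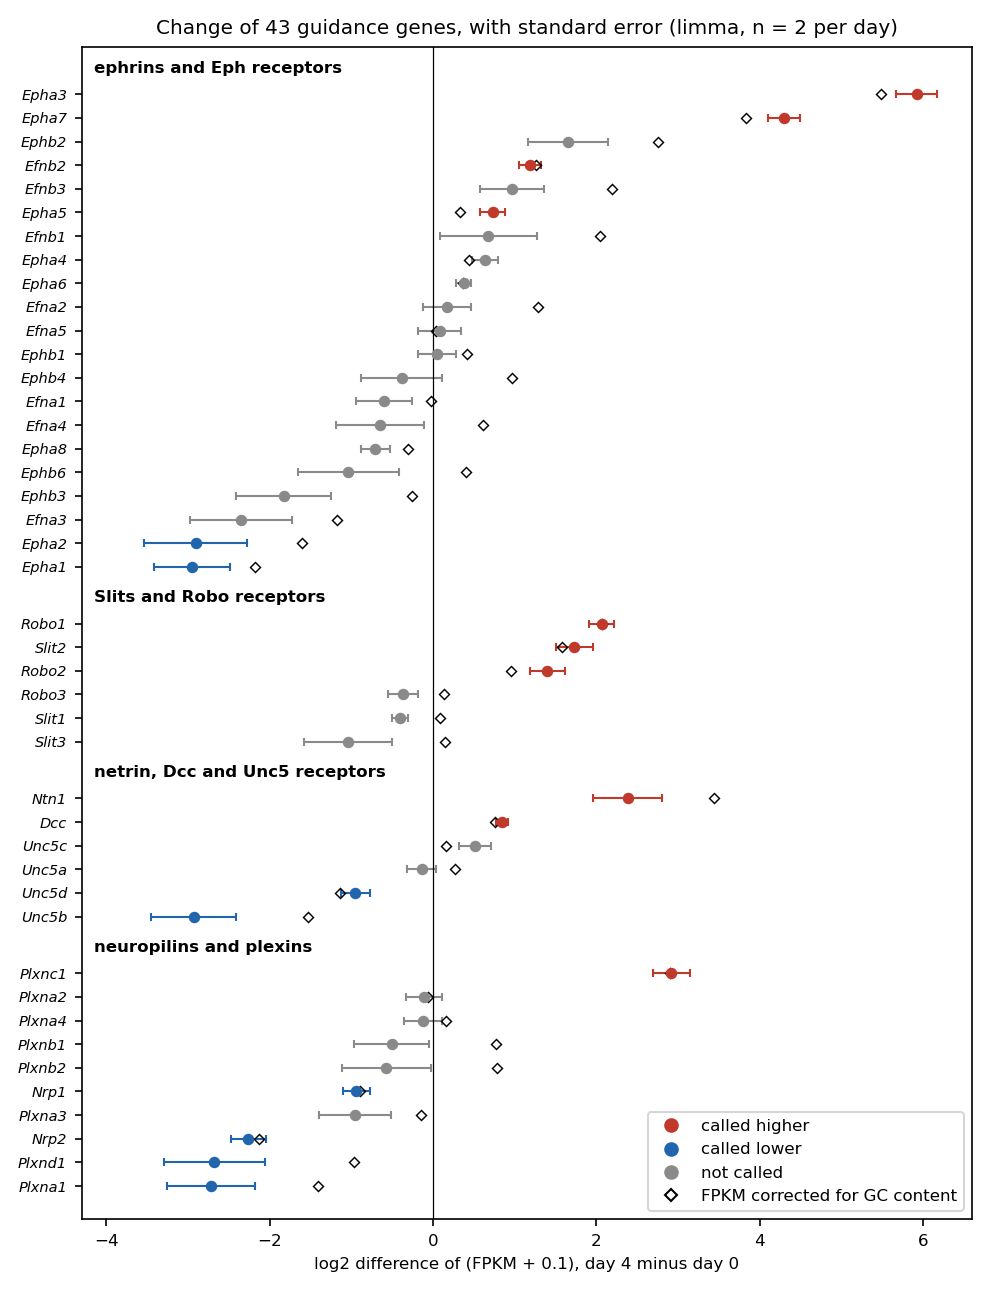
Log2 difference of (FPKM + 0.1) between day 4 and day 0 for the 43 genes in 4 groups, with the standard error from limma (2 RNA samples per day). Red points were called higher (10), blue points lower (8) and grey points not called (25), and open diamonds give the value from FPKM corrected for GC content, which lies to the right of the uncorrected value for most genes with wide error bars.

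The RNA samples differed from each other in a way that followed the GC content of the transcripts. In day 0 replicate 2, 35 of the 43 genes lay below replicate 1, among them all 23 genes with a GC content of at least 55% (a limit chosen after the values were seen). The vials of mix 3 and mix 4 of this RNA stood apart from its other two. In 29 of the 43 genes both lay below the other two, and in 10 both lay above. Across the 43 genes, Spearman's rank correlation between GC content and the log2 difference of the day 0 replicates was -0.742, and that with the difference between the days was -0.496. The day 4 replicates differed in the same way, and 32 of the 43 genes lay lower in replicate 2. Over 11429 genes of at least 1 FPKM, the correlation of the replicate difference with GC content was -0.893 at day 0 and -0.799 at day 4. The median log2 difference of the day 0 replicates was -0.468 over the 43 genes and -0.088 over all genes. The genes share the same libraries, and these values describe the samples only. The genes called higher had a median GC content of 45.7% and those called lower 56%. After a correction of each library for GC content, 20 of the 43 genes were called higher and 9 lower, against 27.6% and 25.4% of all genes. They included 9 of the 10 called higher without the correction, with Epha5 as the exception, and all 8 called lower. The part of GC content in the differences between the days was not tested. Without the mix 3 and mix 4 vials of day 0 replicate 2, the calls were 14 higher and 18 lower, beside 27.1% and 33.6% of all genes.

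**Figure D2:**
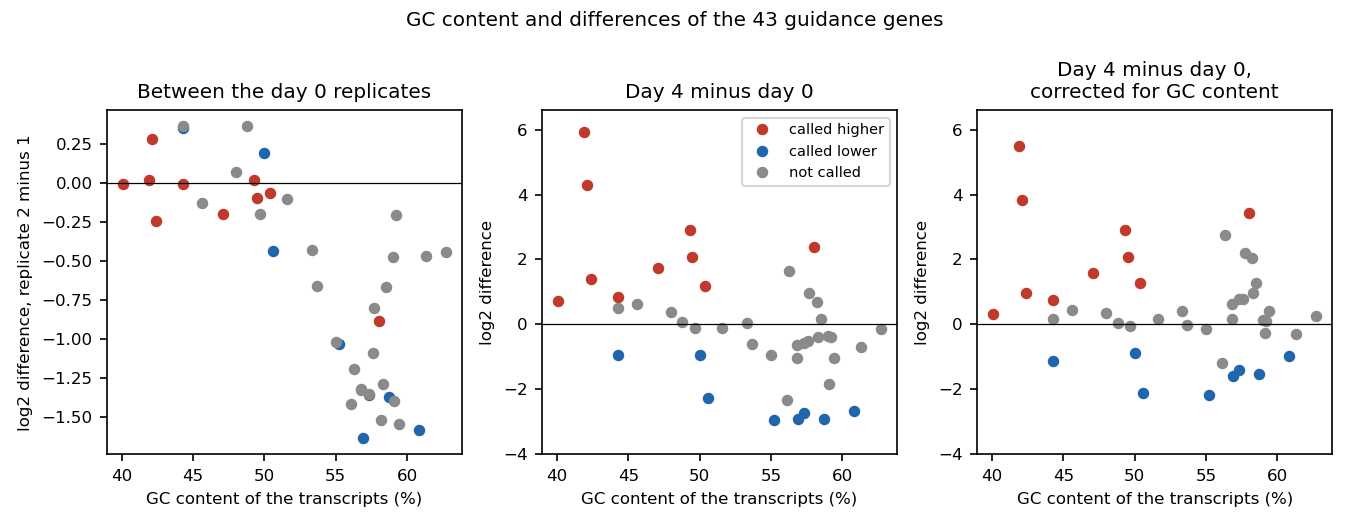
GC content of the transcripts (%) of each of the 43 genes against the log2 difference between the day 0 replicates (left), between day 4 and day 0 (middle) and between day 4 and day 0 after correction for GC content (right). Between the day 0 replicates, the genes of at least 55% GC all lie below 0, and Spearman's rank correlation is -0.742.

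The 8 EphA receptors differed in composition between the days. Their summed level was 29.8 and 18 at day 0 against 63.3 and 63.3 FPKM at day 4, a 2.65-fold higher mean. It was higher in both day 4 samples also with libraries scaled to the same median and with the correction for GC content. Of the 8 genes, 3 were called higher (Epha3, Epha5 and Epha7) and 2 lower (Epha1 and Epha2), beside 16% and 14.5% of all genes. At day 0, Epha2 and Epha4 together made up 76.0% and 74.8% of the sum in the 2 replicates. At day 4, Epha3 and Epha7 made up 73.5% and 71.7%.

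Epha3 is a receptor of ephrin-A ligands with roles in axon mapping and in heart development. It lies on chromosome 16 (GRCm38.p6) from 63543532 to 63864175. Its level was 0.159 and 0.163 at day 0 against 17.8 and 13.9 FPKM at day 4, 98.3-fold higher at day 4 (log2 difference 5.92 ± 0.251 SE, adjusted p = 0.00456). The 8 day 0 libraries lay between 0.128 and 0.21 FPKM and the 8 day 4 libraries between 13.6 and 18.2 FPKM, so the days did not overlap. Epha7, a receptor of the same class that also has truncated forms, showed 1.29 and 1.59 at day 0 against 28.7 and 31.5 FPKM at day 4. The mean was 21-fold higher at day 4 (log2 difference 4.30 ± 0.197 SE, adjusted p = 0.00456), and its lowest day 4 library, at 27.9 FPKM, lay above the highest at day 0, at 1.84 FPKM.

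Epha1 and Epha2, the latter a receptor of early embryonic and epithelial cells, fell. Epha1 had 5.48 and 2.63 at day 0 against 0.487 and 0.336 FPKM at day 4, 9.86-fold lower at day 4 (log2 difference -2.95 ± 0.46 SE, adjusted p = 0.0213). Epha2 had 12 and 3.79 at day 0 against 0.885 and 0.752 FPKM at day 4, 9.66-fold lower (log2 difference -2.91 ± 0.628 SE, adjusted p = 0.040). The spread at day 0 was large for both. In day 0 replicate 2 the vials of mix 1 and 2 held 8.16 and 5.39 FPKM of Epha2 and those of mix 3 and 4 held 0.659 and 0.948 FPKM, within the day 4 range of 0.647 to 1.08 FPKM. Epha2 was therefore called by limma although its libraries overlapped between the days, while those of Epha1 did not. Without these 2 vials the log2 differences were -3.26 and -3.32, and with the correction for GC content they were -2.18 and -1.60, called in both cases. The call of Epha2 was lost with a pseudocount of 1 (adjusted p = 0.076), with variances moderated without a trend (0.0539), with the mean of the log2 values of the vials (0.116) and in the mix 4 vials alone (0.552), and that of Epha1 in the mix 4 vials alone (0.27).

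Epha4, a receptor that binds ephrins of both classes and guides motor axons, had the smallest log2 difference of the 5 EphA genes above 1 FPKM. Its level was 10.6 and 9.7 at day 0 against 15.1 and 16.5 FPKM at day 4, and its log2 difference of 0.64 did not pass the threshold (adjusted p = 0.0519), although every day 4 library lay above every day 0 library. The 3 other genes were near the lower end of the scale. Epha5 had 0.111 and 0.111 at day 0 against 0.22 and 0.281 FPKM at day 4 (log2 difference 0.73 ± 0.158 SE, adjusted p = 0.040) and lost its call with the correction for GC content (adjusted p = 0.164). Epha6 was listed at 0 in 6 of the 8 day 0 libraries and reached at most 0.058 FPKM at day 4. Epha8 had at most 0.124 FPKM at day 0 and was listed at 0 in 5 of the 8 day 4 libraries. The smallest value above 0 in a library was 0.009 to 0.011 FPKM, so these levels are a few steps of the table.

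**Figure D3:**
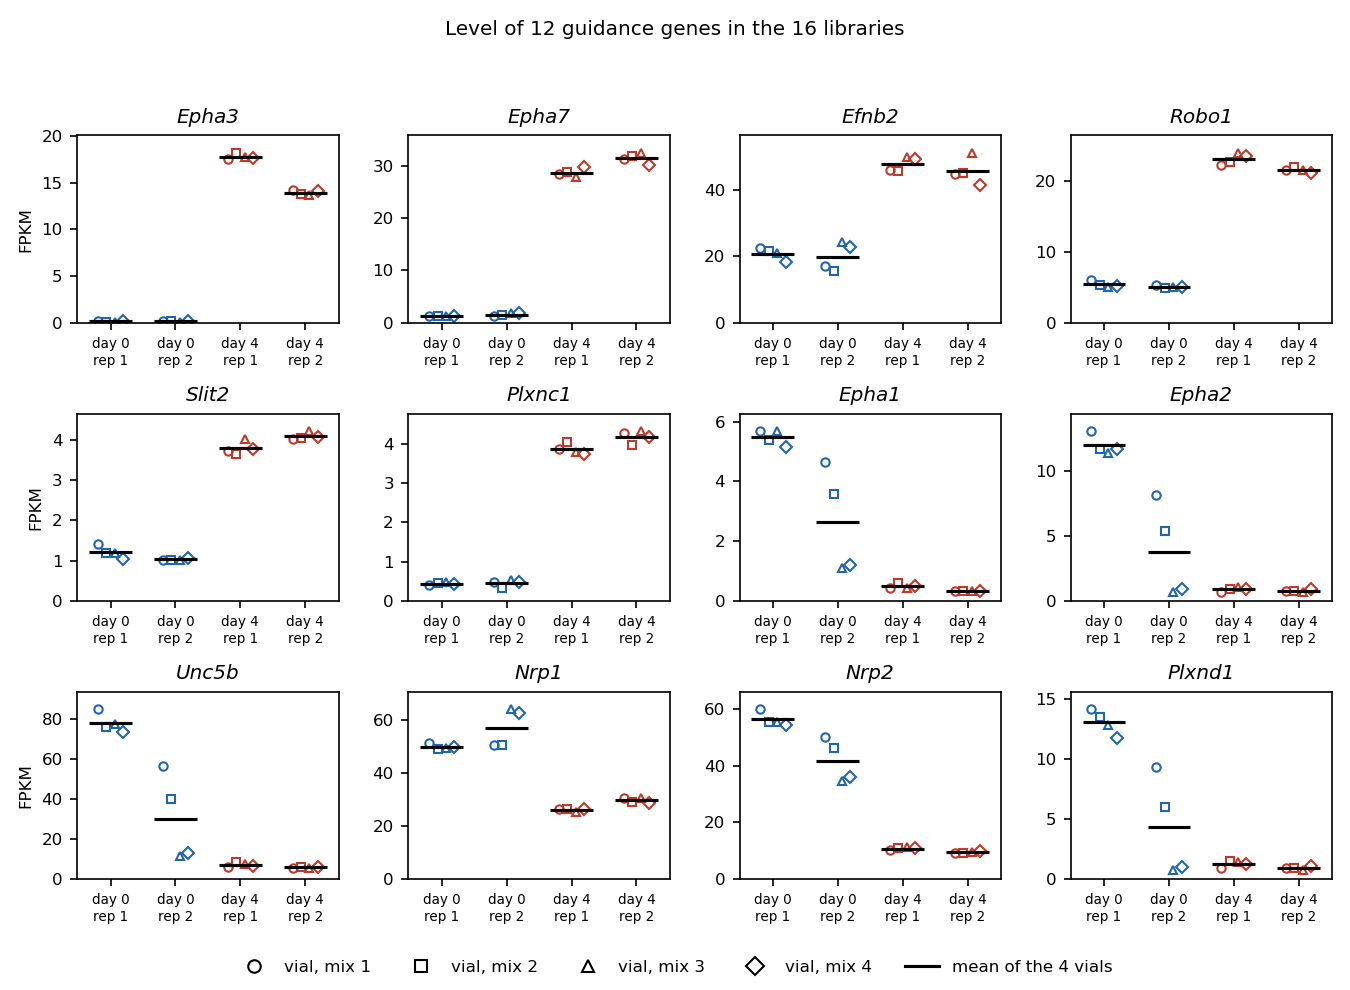
FPKM of 12 guidance genes in the 4 RNA samples, with 1 symbol for each vial (mix 1 to 4), the mean of the 4 vials as a line, and each axis starting at 0. Epha3, Epha7, Efnb2, Robo1, Slit2 and Plxnc1 are higher in all 8 day 4 libraries, and for Epha1, Epha2, Unc5b and Plxnd1 the vials of day 0 replicate 2 are spread widely.

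None of the 5 EphB receptors was called by limma, beside 16% of all genes called higher and 14.5% lower. Unadjusted, 1 of these receptors was higher and 1 lower. With the replicate number as a block, Ephb2 was called higher (adjusted p = 0.000747) and Ephb3 and Ephb6 lower (0.000794 and 0.0425), beside 22.5% of all genes called higher and 29.1% lower. Their summed level was 44 and 17.5 at day 0 against 30.7 and 23.2 FPKM at day 4, and its day 4 to day 0 ratio changed from 0.876 to 2.45 with the correction for GC content. The shares within the family varied less between replicates. Ephb2, a receptor of axon crossing and synapse formation, made up 13.2% and 14.2% of the sum at day 0 and 46.6% and 45.0% at day 4. Its level was 5.83 and 2.49 at day 0 against 14.3 and 10.4 FPKM at day 4, all 8 day 4 libraries lay above those of day 0, and the log2 difference was 1.65 ± 0.486 (adjusted p = 0.0736; 2.76 and called with the correction for GC content). Ephb3, which acts with Ephb2 in the gut epithelium, made up 26.3% and 24.7% at day 0 and 7.88% and 6.56% at day 4, from 11.6 and 4.31 at day 0 against 2.42 and 1.52 FPKM at day 4 (log2 difference -1.83 ± 0.583, adjusted p = 0.0862). Ephb4, the receptor of venous endothelium, held the largest share at day 0, with 53.6% and 55%. Its level of 23.6 and 9.6 at day 0 against 12.9 and 10.4 FPKM at day 4 overlapped between the days, and its log2 difference of -0.38 turned to 0.97 with the correction for GC content. Ephb6, whose kinase is inactive, had 2.72 and 0.863 at day 0 against 0.812 and 0.608 FPKM at day 4, also overlapping. Ephb1 stayed low, with 0.312 and 0.206 at day 0 against 0.292 and 0.242 FPKM at day 4.

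Of the 8 ephrins, 1 was called, beside 16% of all genes called higher and 14.5% lower. Efnb2, a transmembrane ligand of EphB and Epha4 receptors that marks arterial endothelium, was the most abundant of the 43 genes at day 4. Its level was 20.8 and 19.9 at day 0 against 47.6 and 45.7 FPKM at day 4, 2.29-fold higher at day 4 (log2 difference 1.19 ± 0.134 SE, adjusted p = 0.0117). The 8 libraries of day 0 reached at most 24.2 FPKM and those of day 4 at least 41.6 FPKM. In the mix 4 vials alone, Efnb2 was not called (adjusted p = 0.0849). The other ephrin-B ligands, Efnb1 (X-linked) and Efnb3, were not called. Efnb1 had 10.4 and 3.56 at day 0 against 11.5 and 8.37 FPKM at day 4 and Efnb3 5.72 and 3.24 at day 0 against 10.4 and 6.95 FPKM at day 4, with log2 differences of 0.68 ± 0.59 and 0.97 ± 0.391. With the correction for GC content both were called higher, at 2.05 and 2.19. The sum of the 3 ephrin-B genes was 36.9 and 26.7 at day 0 against 69.6 and 61 FPKM at day 4, and stayed higher at day 4 with another scaling of the libraries and with the correction for GC content.

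Of the 5 ephrin-A ligands, which are held in the membrane by a lipid anchor, 0 were called by limma. Unadjusted, 0 were higher and 1 was lower. Of all genes, 16% were called higher and 14.5% lower. Efna1, Efna3 and Efna4 are neighbours on chromosome 3 between 89271730 and 89338028. Efna3 had 6.65 and 2.42 at day 0 against 0.974 and 0.515 FPKM at day 4 and a log2 difference of -2.34 ± 0.624 (adjusted p = 0.0604). Efna4 had 14.7 and 5.81 at day 0 against 7.08 and 4.84 FPKM at day 4 and Efna1 11.5 and 7.26 at day 0 against 7.28 and 4.94 FPKM at day 4, with differences of -0.65 and -0.60, and neither separated the days. Efna2 had 6.77 and 4.24 at day 0 against 6.17 and 5.93 FPKM at day 4. Efna5, the ligand of retinal mapping, had 0.768 and 1.02 at day 0 against 0.983 and 0.908 FPKM at day 4. For Efna2 and Efna5 the differences between the days, 0.17 ± 0.292 and 0.083 ± 0.265, were within 1 standard error of 0. The summed ephrin-A level overlapped between the days, and its day 4 to day 0 ratio of 0.648 became 1.33 with the correction for GC content.

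**Figure D4:**
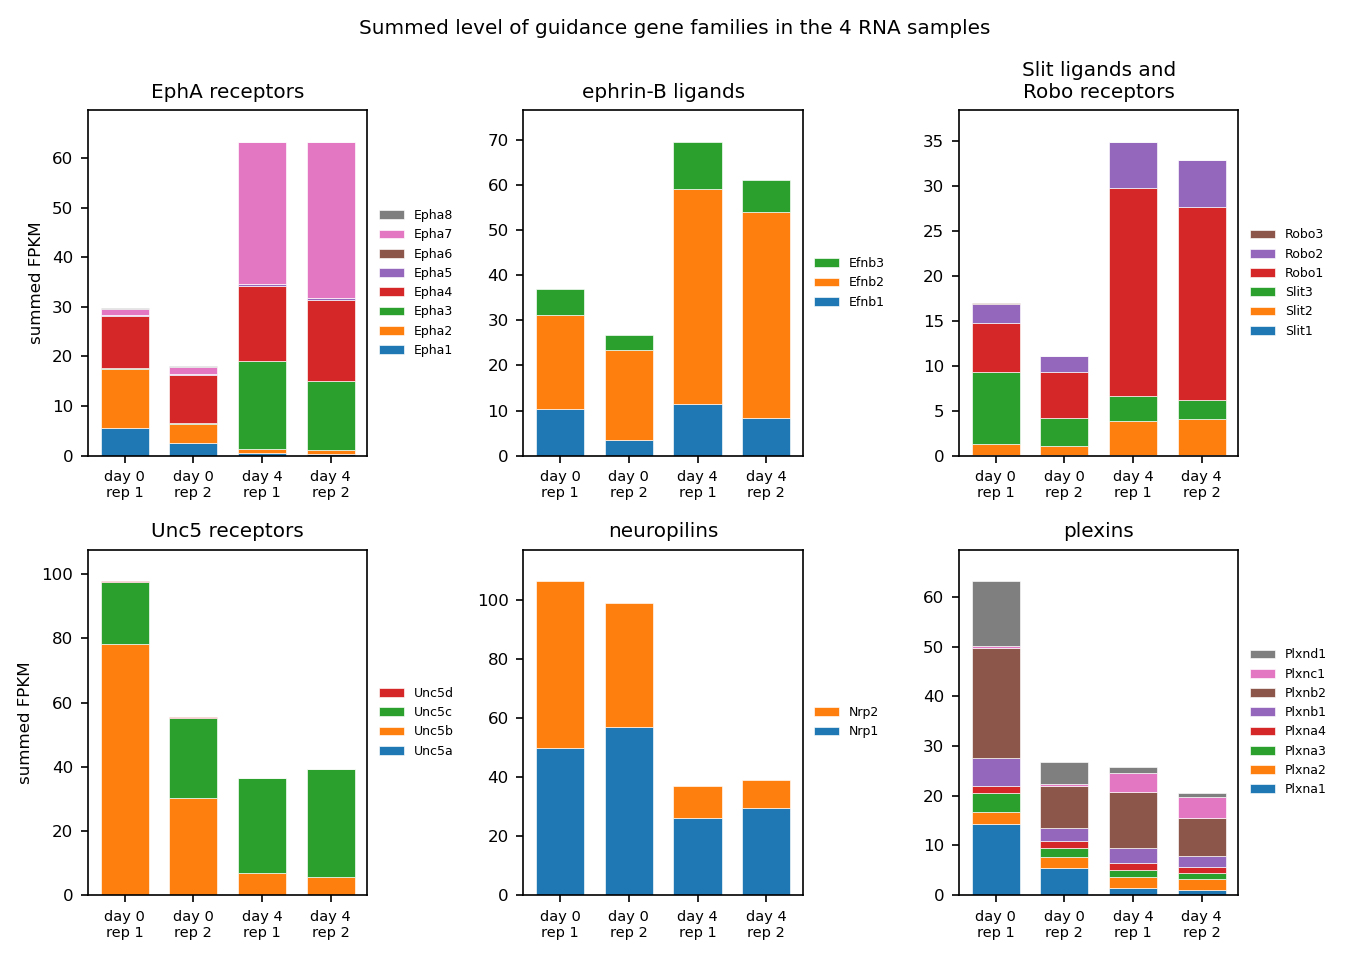
Summed FPKM of 6 families in the 4 RNA samples (day 0 and day 4, replicates 1 and 2), with 1 colour for each gene. The EphA sum at day 4 consists mainly of Epha7, Epha3 and Epha4, Robo1 makes up most of the Slit and Robo sum at day 4, and Unc5b and Nrp2 take a smaller part at day 4 than at day 0.

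In the Slit and Robo group, Slit2, Robo1 and Robo2 were called higher and 0 of 6 genes were called lower by limma (1 unadjusted). Of all genes, 16% were called higher and 14.5% lower. Robo1 and Robo2 are the principal receptors of Slit repulsion and both lie on chromosome 16, from 72027518 to 73047491 and from 73891976 to 75447443. Robo1 had 5.42 and 5.08 at day 0 against 23.1 and 21.5 FPKM at day 4, 4.25-fold higher at day 4 (log2 difference 2.06 ± 0.155 SE, adjusted p = 0.00611). Robo2 had 2.06 and 1.73 at day 0 against 5.11 and 5.17 FPKM at day 4, 2.72-fold higher (log2 difference 1.40 ± 0.214 SE, adjusted p = 0.0206). Both had close replicates, and their 8 day 4 libraries lay above all those of day 0. Slit2, the secreted ligand, had 1.2 and 1.03 at day 0 against 3.79 and 4.08 FPKM at day 4, 3.52-fold higher (log2 difference 1.73 ± 0.228 SE, adjusted p = 0.0155), again without overlap. All 3 calls were kept with the correction for GC content and without the divergent vials of day 0 replicate 2. In the mix 4 vials alone, Slit2 and Robo2 were not called (adjusted p = 0.059 and 0.0695), and Robo2 was not called with unmoderated variances (0.0613).

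The other 3 genes of the group were not called. Slit3 was the main Slit at day 0, with 8.05 and 3.15 at day 0 against 2.83 and 2.04 FPKM at day 4. Its replicates at day 0 were far apart, and the difference of -1.04 ± 0.538 was not called (adjusted p = 0.21). With the correction for GC content the difference of Slit3 was 0.15, also not called. The order of the Slits in uncorrected FPKM differed between the days: Slit3 lay above Slit2 in both day 0 RNA samples and below it in both day 4 samples. Slit1, at most 0.132 FPKM in a library, and Robo3, a receptor of commissural axons with at most 0.14 FPKM, were near the smallest values of the table on both days.

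In the netrin group, the ligand Ntn1 and its attractive receptor Dcc were called higher, and 2 of the 4 Unc5 receptors, which mediate repulsion, were called lower. The shares of all genes were 16% and 14.5%. Ntn1 had 0.378 and 0.159 at day 0 against 2.05 and 1.47 FPKM at day 4, 6.56-fold higher at day 4 (log2 difference 2.38 ± 0.42 SE, adjusted p = 0.0271). It was the only gene called higher with a GC content above 55%, and the correction for GC content raised its difference to 3.45. The call of Ntn1 was lost with unmoderated variances (adjusted p = 0.142) and in the mix 4 vials alone (0.176), and that of Dcc with unmoderated variances (0.0554). Dcc was listed at 0 in 6 of the 8 day 0 libraries and at 0.011 FPKM or less in the other two. Its day 4 libraries lay between 0.056 and 0.124 FPKM, which is still a low level (log2 difference 0.84 ± 0.0781 SE, adjusted p = 0.00837). No fold is given for Dcc, since the day 0 level was at the smallest value of the table.

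Unc5b was the most abundant of the 43 genes at day 0 by its mean. Unc5b, which also acts as a receptor in vascular endothelium, had 78.2 and 30.2 at day 0 against 6.97 and 5.68 FPKM at day 4, 8.56-fold lower at day 4 (log2 difference -2.93 ± 0.521 SE, adjusted p = 0.0277). The 4 vials of day 0 replicate 2 held 56.5, 40, 11.3 and 12.9 FPKM. The lowest of them still lay above the highest day 4 library, at 8.21 FPKM. With the correction for GC content the log2 difference of Unc5b was -1.52, and its call was lost with the mean of the log2 values of the vials (adjusted p = 0.0574) and in the mix 4 vials alone (0.349). Unc5d had 0.184 and 0.264 at day 0 against 0.074 and 0.0595 FPKM at day 4 (log2 difference -0.95 ± 0.175 SE, adjusted p = 0.0296), a low level on both days but without overlap. Unc5c, in contrast, was abundant on both days, with 19.4 and 25.1 at day 0 against 29.5 and 33.7 FPKM at day 4. Its difference of 0.51 ± 0.198 was not called (adjusted p = 0.125), and its libraries overlapped. In uncorrected FPKM, by the mean of the 4 vials, Unc5c was the main Unc5 receptor in both day 4 RNA samples and Unc5b in both day 0 samples. In the mix 3 and mix 4 vials of day 0 replicate 2 the order was the other way, with 31.7 and 30.3 FPKM of Unc5c. Unc5a had at most 0.065 FPKM in any library.

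Both neuropilins were called lower at day 4, beside 14.5% of all genes. Neuropilins bind class 3 semaphorins and VEGF. Nrp1 had 49.8 and 57 at day 0 against 26.1 and 29.6 FPKM at day 4, 1.92-fold lower (log2 difference -0.94 ± 0.161 SE, adjusted p = 0.0258). Nrp2 had 56.5 and 41.9 at day 0 against 10.7 and 9.46 FPKM at day 4, 4.88-fold lower (log2 difference -2.26 ± 0.215 SE, adjusted p = 0.00872). In neither gene did the libraries of the 2 days overlap. Both have a GC content of about 50% (50% and 50.6%), and the correction for GC content changed little, with -0.89 and -2.13. The call of Nrp1 was lost with libraries scaled to the same median (adjusted p = 0.135), with unmoderated variances (0.097) and in the mix 4 vials alone (0.0855). That of Nrp2 was lost with unmoderated variances (0.0727) and in the mix 4 vials alone (0.0612). The summed neuropilin level was 106 and 98.9 at day 0 against 36.8 and 39.1 FPKM at day 4.

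Of the 8 plexins, Plxnc1 was called higher and Plxna1 and Plxnd1 lower, beside 16% and 14.5% of all genes. Plxnc1, the receptor of Sema7a, had 0.441 and 0.449 at day 0 against 3.86 and 4.19 FPKM at day 4, 9.05-fold higher at day 4 (log2 difference 2.92 ± 0.229 SE, adjusted p = 0.00657). Its 8 day 4 libraries lay between 3.74 and 4.34 FPKM and those of day 0 at 0.521 FPKM or less. Plxna1, which signals with neuropilins, had 14.3 and 5.49 at day 0 against 1.46 and 1.09 FPKM at day 4, 7.75-fold lower (log2 difference -2.72 ± 0.543 SE, adjusted p = 0.0342). Plxnd1, a receptor of endothelial cells for Sema3e, had 13.1 and 4.29 at day 0 against 1.27 and 0.93 FPKM at day 4, 7.89-fold lower (log2 difference -2.68 ± 0.62 SE, adjusted p = 0.0459). In day 0 replicate 2, the mix 3 vial of Plxna1 and the mix 3 and mix 4 vials of Plxnd1 reached into the day 4 range. Without the mix 3 and mix 4 vials the differences were -3.10 and -3.09, and with the correction for GC content -1.40 and -0.97, all called. Both calls were lost with a pseudocount of 1 (adjusted p = 0.0597 and 0.0798), with the mean of the log2 values of the vials (0.0853 and 0.135) and in the mix 4 vials alone (0.511 and 0.601), and Plxnd1 was called in 8 of 17 alternatives.

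The remaining plexins were not called. Plxnb2, the most abundant plexin, had 22.1 and 8.56 at day 0 against 11.3 and 7.56 FPKM at day 4, Plxnb1, a receptor of Sema4d, had 5.67 and 2.61 at day 0 against 3.07 and 2.35 FPKM at day 4, and Plxna3 had 3.74 and 1.79 at day 0 against 1.46 and 1.14 FPKM at day 4. Plxna2 had 2.5 and 2.17 at day 0 against 2.16 and 2.14 FPKM at day 4. Plxna4 had 1.45 and 1.34 at day 0 against 1.33 and 1.23 FPKM at day 4. The differences between the days of these latter genes were -0.11 ± 0.222 and -0.12 ± 0.232. The signs for Plxnb1 and Plxnb2 depended on the processing. With the correction for GC content, their differences of -0.51 and -0.57 became 0.78 and 0.79, called higher. Both signs were also reversed in the mix 4 vials alone and without day 0 replicate 1. The summed plexin level was lower in both day 4 samples (25.9 and 20.6 FPKM) than at day 0 (63.2 and 26.7 FPKM), and higher in both after the correction for GC content.

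Over all 43 genes, the 8 day 4 libraries lay above the 8 of day 0 in 14 genes and below them in 5. Among all genes tested these shares were 19.8% and 14.6%, against 32.6% and 11.6% of the guidance genes. Since vials are splits of 1 RNA, this describes the libraries. By role, 3 of 12 ligands were called higher and 0 lower by limma (2 unadjusted), and 7 of 31 receptors higher and 8 lower. These counts stand beside 16% and 14.5% of all genes. Without the mix 3 and mix 4 vials of day 0 replicate 2, 3 ligands were called higher and 4 lower, and 11 receptors higher and 14 lower. The shares of all genes were then 27.1% and 33.6%.

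The order of levels differed between the days. At day 0 the highest mean levels were those of Unc5b, Nrp1 and Nrp2, whose replicate ranges overlapped (30.2 to 78.2, 49.8 to 57.0 and 41.9 to 56.5 FPKM). These were followed by Unc5c and Efnb2, which overlapped with each other. At day 4 Efnb2 was first, above both replicates of every other gene. Unc5c, Epha7 and Nrp1 followed, of which neighbours overlapped, and then Robo1, Epha3 and Epha4. Of the 43 genes, 9 stayed below 1 FPKM in all 4 RNA samples.

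Of the 43 genes, 10 had several RefSeq rows. Among the 60 rows above 0 in any library, 11 were called higher and 7 lower, against 10.2% and 8.67% of all 28214 transcripts tested. All 3 Epha7 rows were called higher, and the shares of NM_010141, the main one, were 78.4% and 76.9% at day 0 and 71.5% and 72.9% at day 4. Of the 6 Nrp2 rows, 4 were called lower. The share of the main row, NM_001077404, was 55.5% and 58.0% at day 0 and 68.4% and 68.8% at day 4, and that of NM_001077405 was 20.7% and 20.3% against 13.9% and 11.1%. For Plxnb2 the row NM_001284506 made up 12.2% and 7.42% at day 0 and 47.5% and 47.5% at day 4, while NM_138749 made up 78.1% and 88.0% at day 0 and 50.2% and 48.2% at day 4. The 3 Plxnb2 rows were not called by limma, with adjusted p from 0.15 to 0.286, so these shares are values only. Reads that rows share were divided by the authors' abundance estimation, so these shares are estimates.

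**Figure D5:**
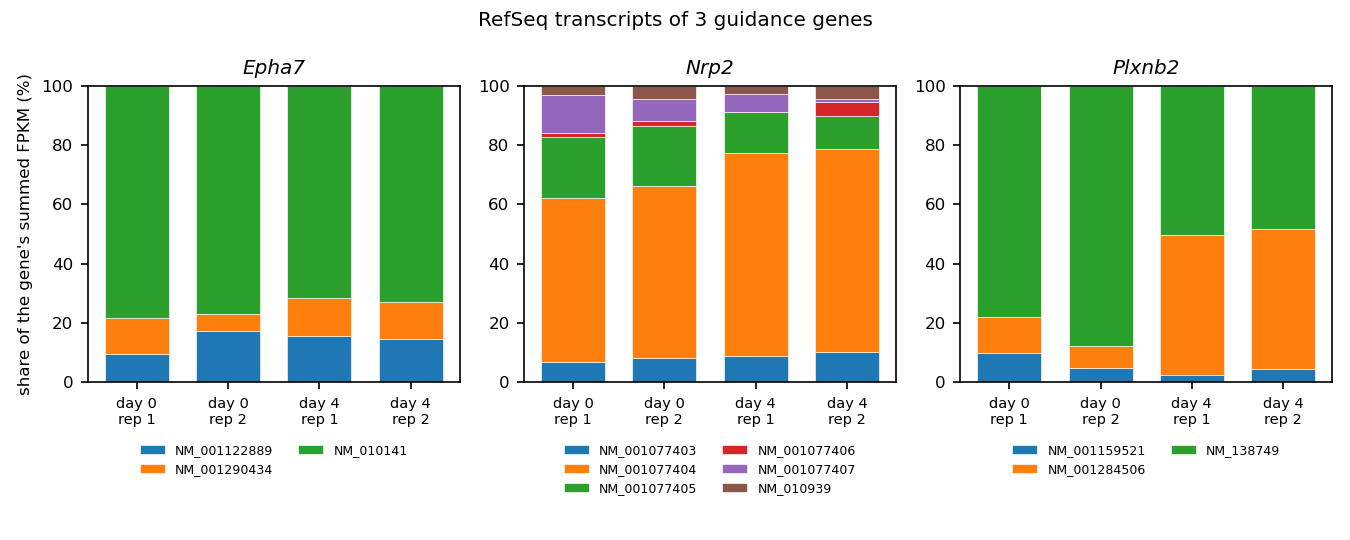
Share of each RefSeq transcript in the summed FPKM of Epha7, Nrp2 and Plxnb2 (%), in the 4 RNA samples (day 0 and day 4, replicates 1 and 2). The shares of Epha7 are alike on both days, and NM_001284506 of Plxnb2, which was not called, is at 12.2% and 7.42% at day 0 and at 47.5% in both replicates of day 4.

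Other genes of the pathway were taken from lists. Of 19 semaphorins, 4 were called higher and 4 lower at day 4, beside 16% and 14.5% of all genes, with a median log2 difference of -0.65. The secreted Sema3c, a ligand of neuropilins and plexins, had 0.32 and 0.369 at day 0 against 36 and 42.5 FPKM at day 4 (log2 difference 6.46). It was followed by Sema3d with 0.246 and 0.378 at day 0 against 2.54 and 3.24 FPKM at day 4, Sema3a with 1.85 and 2.5 at day 0 against 15.2 and 16.9 FPKM at day 4, and the transmembrane Sema6d with 1.2 and 1.41 at day 0 against 4.62 and 4.72 FPKM at day 4. Called lower were Sema7a, with 3.0 and 1.4 at day 0 against 0.161 and 0.114 FPKM at day 4, Sema6b, with 1.51 and 0.542 at day 0 against 0.106 and 0.0715 FPKM at day 4, Sema5a, with 2.31 and 2.37 at day 0 against 0.745 and 0.81 FPKM at day 4, and Sema4d, with 0.838 and 0.505 at day 0 against 0.233 and 0.183 FPKM at day 4. The receptor and ligand pair Plxnc1 and Sema7a thus moved in opposite directions, with log2 differences of 2.92 and -3.19.

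Of 18 other guidance ligands and receptors, 6 were called higher and 2 lower, beside 16% and 14.5% of all genes, with a median of 0.35. Neo1, a receptor of netrins and repulsive guidance molecules, had 5.49 and 5.33 at day 0 against 35.8 and 35.9 FPKM at day 4. The Flrt proteins, which bind Unc5 receptors, were called higher in all 3 genes: Flrt2 had 0.557 and 0.721 at day 0 against 9.84 and 10.7 FPKM at day 4, Flrt3 11.9 and 13.8 at day 0 against 56.4 and 62.2 FPKM at day 4 and Flrt1 0.196 and 0.106 at day 0 against 0.732 and 0.614 FPKM at day 4. Cxcl12, a chemokine, had 6.28 and 4.44 at day 0 against 15.2 and 15.4 FPKM at day 4, and its receptor Cxcr4 was called lower, with 20.3 and 15.4 at day 0 against 4.57 and 4.65 FPKM at day 4. Dscam, a cell adhesion receptor, was also called lower, with 1.08 and 0.641 at day 0 against 0.0168 and 0.00975 FPKM at day 4. The log2 differences were 2.71 for Neo1, 3.82 for Flrt2, 1.52 for Cxcl12, -1.91 for Cxcr4 and -3.05 for Dscam.

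Of 36 cytoplasmic effectors, 5 were called higher and 6 lower, beside 16% and 14.5% of all genes, with a median of -0.10. Rnd1, an atypical GTPase of plexin signalling, Farp2, an exchange factor of the plexin pathway, Srgap3, a partner of Robo receptors, the kinase Fyn and Dpysl3 were called higher, with log2 differences of 1.64, 1.52, 1.48, 1.30 and 1.16. Crmp1 and Dpysl5, of the same family of semaphorin mediators as Dpysl3, were called lower, with -2.71 and -1.80. So were the kinase Fes, the exchange factor Vav2 and the actin-binding Ablim1, with -2.37, -2.37 and -1.48. The GTPases at the end of the pathway, Rac1, Cdc42 and Rhoa, were not called. Rac1 had 137 and 135 at day 0 against 142 and 142 FPKM at day 4 and Rhoa 143 and 149 at day 0 against 134 and 128 FPKM at day 4. Cdc42 had 241 and 312 at day 0 against 438 and 465 FPKM at day 4, with a log2 difference of 0.72 (adjusted p = 0.0676).

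Markers of other cell types moved between the days as well. The counts below stand beside 16% of all genes called higher and 14.5% called lower. The libraries are labelled as embryonic stem cells. Pluripotency markers summed to 199 and 140 at day 0 against 12.2 and 7.71 FPKM at day 4, and 7 of 8 were called lower. All 5 primitive streak and mesoderm markers were called lower, with sums of 129.9 and 126 FPKM against 0.566 and 0.629 FPKM. Of 6 mesenchyme markers, 4 were called higher (Col1a2, Col3a1, Pdgfra and Twist1), while Col1a1 and Acta2 were not called. The sums went from 62.2 and 35.6 to 281 and 268 FPKM, of which Col3a1 made up 162 and 152 FPKM at day 4. Col1a1 went the other way, with 20 and 5.98 at day 0 against 2 and 1.62 FPKM at day 4. Of 6 endoderm markers, 4 were called higher (Gata4, Gata6, Foxa2 and Afp), with sums of 16.5 and 14.9 against 76.9 and 76.7 FPKM. Gata6 made up 53.2 and 55.7 FPKM of the day 4 sums, and most of the rest was Gata4. Foxa2, Afp and Ttr had day 4 means below 1 FPKM. Sox17 went the other way and was not called (log2 difference -0.44). With the correction for GC content, Foxa2 lost its call (adjusted p = 0.075) and Ttr was called higher (0.0457). Of 9 neuron markers, 2 were called higher (Dcx and Rbfox3) and 3 lower (Tubb3, Stmn2 and Elavl3), with sums of 36.8 and 21.4 against 15.3 and 14.3 FPKM. Of 6 neural progenitor markers, 1 was called higher (Pax6) and 1 lower (Sox1), with sums of 33.5 and 30.7 against 27.3 and 28.2 FPKM. Most of these sums was Nes and Fabp7, which were not called. Both called genes were low: Pax6 had at most 0.424 and Sox1 at most 0.117 FPKM in an RNA sample. Sox1 lost its call with the correction for GC content (adjusted p = 0.557). Of 7 endothelial markers, 1 was called higher and 3 lower, with sums of 78.1 and 67.4 against 53.5 and 50.7 FPKM. Of 5 motor neuron markers, 1 was called higher (Lhx3) and 0 lower (0 unadjusted), and Olig2 and Chat stayed below 0.1 FPKM in all 16 libraries. The part of these cell types in the change of the guidance genes was not tested. In RNA of whole EBs, more cells of a type and more RNA per cell cannot be told apart.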

How the data were processed

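Ribosome-depleted, strand-specific libraries were sequenced as paired ends by the authors, who aligned the reads with Bowtie2 2.1.0 to RefSeq transcripts of mm10 plus the spike-ins, estimated transcript abundance with RSEM 1.2.18 and scaled the resulting FPKM by TMM. The deposited FPKM sum to 411090 to 622888 per library. The table holds no fragment counts, so the depth behind single values is unknown and no counting interval is given.

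The libraries of a day and mix were assigned to replicate 1 or 2 by the sample list of the paper. FPKM of 33702 RefSeq rows (99.2% with a gene symbol) were summed per gene, leaving out 48 spike-in rows. The mean of the 4 vials of an RNA sample was compared between the days as log2(FPKM + 0.1) with limma 3.58.1 in R 4.3.3 (lmFit, eBayes with a trend, no replicate term), over 20491 genes above 0 in any library, with Benjamini-Hochberg adjustment over all of them and a threshold of 0.05. Differences are on this scale and understate the change of low genes. Folds are ratios of mean FPKM. The fit was tested on simulated data. Per the paper, the 2 RNA samples of a day are biological replicates from a repeat of the whole procedure.

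GC content was taken from GENCODE transcripts of GRCm38 (97.4% of genes, 43 of 43 guidance genes). The GC correction divides each library by its median deviation in 20 bins of GC content over 11429 genes and would also take away a biological difference between the days that followed GC content. Gene positions and promoter sequences come from RefSeq (GRCm38.p6), and sequences of chromosome 18 were not used here. All 43 genes are named, and of the other lists the 5 called genes with the largest change in each direction, to which Rac1, Cdc42 and Rhoa were added after their values were seen. The guidance genes and lists were chosen with earlier results of these data known. Sema3b, a spike-in gene, was left out. Columns without a sample numbered 0. Alternatives were 17 for the genes and 3 for the transcripts.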

Additional observations from a re-analysis of the deposited data

Results flagged for a closer look

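Dixon's test was applied to 59 sets of 8 libraries of a day, for guidance genes of at least 1 FPKM on that day. In 3 sets, the distance of a library to the next was above the critical share of the whole range. Chance gives this for about 1 in 20 sets of 8 independent values. The 8 libraries of a day are vials of 2 RNA samples and not independent, so that rate does not apply here. At day 0 the mix 1 vial of replicate 1 had 1.41 FPKM of Slit2, against 1.01 to 1.18 FPKM in the other libraries, and 6.10 FPKM of Robo1, against 4.88 to 5.37 FPKM. At day 4 the mix 1 vial of replicate 2 had 5.38 FPKM of Robo2, against 5.00 to 5.15 FPKM. All 3 genes lie far from the values of the other day in every library.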

How the results depend on the processing

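None of the 18 called genes changed direction under any of the 17 alternatives, while 15 of the 25 others did under at least 1. The alternatives use the same RNA samples in which the called genes were chosen for differences large against their spread. That contrast therefore gives no support to the calls. Calls were lost even where the direction was kept. Epha3, Epha7, Robo1 and Plxnc1 were called in 15 of 17, Efnb2 and Slit2 in 14, Robo2, Ntn1 and Nrp2 in 13, Epha1 and Unc5b in 12, Nrp1 in 11, Epha2 and Plxna1 in 10 and Plxnd1 in 8, and of the 16 that apply to low genes, Dcc in 13, Unc5d in 11 and Epha5 in 6. A replicate block gave 14 guidance genes higher and 15 lower, beside 4618 (22.5%) and 5969 (29.1%) of all genes, and 17 higher and 15 lower transcripts of guidance genes. The labels do not pair the days, but the replicate differences of day 0 and day 4 were correlated (r = 0.769 over 11584 genes). Corrected for GC content, 5515 genes were higher and 5076 lower, with 20 guidance genes higher and a median of 0.33 for the guidance genes. With the replicate block added, these were 6031, 5731, 20 and 0.33. Reversed by the correction, with or without the replicate block, were Ephb4 (0.97), Ephb6 (0.41), Efna4 (0.61), Slit1 (0.092), Slit3 (0.15), Robo3 (0.13), Unc5a (0.27), Plxna4 (0.16), Plxnb1 (0.78) and Plxnb2 (0.79). From the mix 4 vials alone, 1044 genes were higher and 368 lower, 5 guidance genes higher and 0 lower by limma (12 and 2 unadjusted), with a median of 0.14. Reversed were Ephb4 (0.22), Efna4 (0.14), Efna5 (-0.17), Slit1 (0.033), Robo3 (0.0032), Unc5a (0.00013), Plxna2 (0.027), Plxna4 (0.13), Plxnb1 (0.15) and Plxnb2 (0.32). Libraries scaled to the same median reversed Plxna2 (0.035) and Plxna4 (0.030).

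Without the mix 3 and mix 4 vials of day 0 replicate 2, 5550 genes were higher and 6881 lower, 18 guidance genes were lower, the median was -0.27, Ephb1 was reversed (-0.17), and 18 transcripts were higher and 22 lower. Unmoderated variances gave 1283 genes higher and 584 lower and 6 guidance genes higher and 0 lower (11 and 4 unadjusted). A pseudocount of 1 gave 5 guidance genes lower, the mean of the log2 values 4, and a pseudocount of 0.01 a median of -0.36. Over genes of at least 1 FPKM, 2092 were higher and the median was -0.38.

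Leaving out 1 RNA sample gave 0 to 3675 genes higher and 0 to 5559 lower, 0 to 9 guidance genes higher and 0 to 15 lower, and medians from -0.36 to 0.039. No gene was called by limma without either day 4 sample, where the lowest adjusted p of a guidance gene was 0.064 and 0.066. Without day 0 replicate 1, Ephb4 (0.26, lowest of the 4 values -1.02), Efna4 (0.011, lowest -1.31), Efna5 (-0.10), Unc5a (0.086), Plxnb1 (0.039, lowest -1.05) and Plxnb2 (0.11, lowest -1.25) were reversed. Without day 0 replicate 2, Ephb1 (-0.17), Efna2 (-0.16, highest 0.50) and Efnb1 (-0.080, highest 1.44) were reversed, and Ephb1 (-0.053) also without day 4 replicate 1. The cause of these changes was not tested. Guidance genes near the smallest table value, such as Slit1, Robo3, Unc5a and Epha6, limit what their differences can show.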

Other observations

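Of the 25 guidance genes that were not called, 12 were called after the correction for GC content, 11 higher (Epha4, Epha6, Ephb1, Ephb2, Ephb4, Efna4, Efnb1, Efnb3, Unc5a, Plxnb1 and Plxnb2) and 1 lower (Epha8). These genes were singled out after their values were seen. Among them are 3 of the 5 EphB receptors and both ephrin-B ligands not called before. The EphB receptors and ephrin-B ligands together had 1 gene of 8 called higher and 0 lower by limma without the correction (2 higher and 1 lower unadjusted), and 6 called higher and 0 lower with it, beside 27.6% and 25.4% of all genes, with a median log2 difference of 0.36 and 1.12. Their median GC content was 57.9%, against 49.8% for all genes.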
